A study of Mus musculus with 10 samples.

Results

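Il1a, Il1b, Il1rn, Il1r2 and Tnf, 5 of the 32285 genes in the matrices, were followed through the cells of SW1 tumors, a mouse melanoma line grown under the skin of C3H/HeJ mice. They were chosen by name, as the genes of both IL-1 ligands, the IL-1 receptor antagonist, the IL-1 decoy receptor and TNF. Single cells were sequenced in droplets (10x Genomics), and RNA was counted in UMIs, short random tags that let each captured molecule be counted once. Female mice aged 4 to 6 weeks received SW1 cells, and after 10 days of growth, by the sample labels, a pretreatment cohort of 3 mice was taken at day 0. The remaining mice drank control water or water with L-fuc, a dietary sugar, for 7 or 21 days. One label protocol gives the L-fuc dose as 100 mM and cohorts of 5 mice, and another gives 100 nM and cohorts of 6. Each condition had 1 library, so there were 5 libraries and no replicates. How many mice of a cohort each library held was not established. Values below follow the order pretreatment, then control and L-fuc of day 7, then control and L-fuc of day 21. No test between conditions was possible. The intervals are exact 95% intervals that cover counting error only. The C3H/HeJ strain carries a defective Tlr4, the receptor for bacterial lipopolysaccharide.

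The libraries held 1725, 20741, 15288, 2754 and 1428 barcodes, of which 1470, 17897, 9034, 1573 and 1182 had at least 500 genes and at most 10% mitochondrial UMIs and were kept. A kept barcode held a median of 2890 to 8201 UMIs. Although the labels describe a CD45+ sort, only 27.6% to 53.6% of the kept barcodes had a UMI of Ptprc, the gene of CD45. Barcodes were classed by summed UMIs of marker genes. Macrophages had at least 10 UMIs of C1qa, C1qb and C1qc together (456, 1751, 2055, 786 and 410 barcodes), and neutrophils at least 10 of S100a8 and S100a9 (6, 39, 58, 17 and 7 barcodes). Tumor barcodes had Sox10 and no Ptprc (12730 in all), and the remaining barcodes with Ptprc formed 1 class (7188 in all). Cell names shared between libraries numbered 3 to 433 per pair, the most between both libraries of day 7, which also held the most barcodes. The number that random draws of names would share was not computed. Levels are given as CPM, the UMIs of a gene in 1000000 UMIs of the class. The fixed marker lists of both classes include the gate genes, so their sums follow in part from the classing. Macrophages carried their 6 fixed markers at a summed 14413 to 26731 CPM, and neutrophil markers at 25.3 to 40.7. The neutrophils of 4 libraries carried their markers at 27190 to 120255 CPM. The 6 barcodes of day 0 carried them at only 5452 and had T cell markers at 1844, with Cd3e in 50% of them, so the name is weakly founded there.

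IL-1α and IL-1β are ligands of the same signalling receptor, IL1R1, which with its partner IL1RAP sets off NF-kB signalling through MYD88. IL-1RA, the product of Il1rn, occupies that receptor without signalling, and IL1R2 binds the ligands but lacks a signalling tail and so acts as a decoy. TNF is made as a membrane protein, is shed by ADAM17 and acts on its own receptors. Macrophages and neutrophils are the cells best known for making these proteins in inflamed tissue, and IL-1β additionally needs cleavage, which RNA counts do not show.

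On GRCm38, Il1a (ENSMUSG00000027399) lies on chromosome 2 at chr2:129299610-129309972 and Il1b (ENSMUSG00000027398) at chr2:129364570-129371139, both on the minus strand with 54597 bases between them. Il1rn (ENSMUSG00000026981) lies far from them on the same chromosome at chr2:24336853-24351494 on the plus strand. Il1r2 (ENSMUSG00000026073) lies at chr1:40074079-40125231 on the plus strand and Tnf (ENSMUSG00000024401) at chr17:35199381-35202007 on the minus strand. RefSeq promoters were found for all 5 genes, with 3 start sites for Il1rn. The 100 bases before the RefSeq start are shown for 4 of the genes, Il1a, Il1b and Tnf, which share a feature, and Il1r2, which had no match to it there. Capitals mark matches to TATAAA, the TATA box, and to TGANTCA, the AP-1 site.
Il1a (chr2:129309973-129310072, minus strand): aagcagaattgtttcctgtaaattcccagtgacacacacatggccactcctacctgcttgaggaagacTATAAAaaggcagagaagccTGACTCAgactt
Il1b (chr2:129371140-129371239, minus strand): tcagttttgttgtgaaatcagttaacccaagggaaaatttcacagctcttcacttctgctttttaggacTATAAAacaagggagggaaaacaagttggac
Tnf (chr17:35202008-35202107, minus strand): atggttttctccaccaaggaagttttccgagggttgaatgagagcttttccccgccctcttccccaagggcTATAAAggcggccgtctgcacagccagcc
Il1r2 (chr1:40085993-40086092, plus strand): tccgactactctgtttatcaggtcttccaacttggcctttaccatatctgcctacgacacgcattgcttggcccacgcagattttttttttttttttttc
TATAAA began 32, 31 and 29 bases before the start of Il1a, Il1b and Tnf. On the gene's strand, 655 of 32841 RefSeq promoters (1.99%) had it at 20 to 40 bases. Il1r2 and all 3 starts of Il1rn had no TATAAA match in 250 bases on either strand. The RefSeq start of Il1r2 lies inside the gene as placed above, and the bases before chr1:40074079 were not searched. Il1rn, whose bases are not shown, had 72.6% of its UMIs in macrophages, against 28.6% for Il1r2. Any tie between these letters and the cells that held the RNA was not tested. Only the exact letters TATAAA were searched, not looser forms of the box. Il1a had an AP-1 match 12 to 6 bases before its start, and Il1rn had one 141 to 135 bases before its first start. No TATAAA match overlapped an AP-1 match. Searched on both strands over 250 bases, 12.4% of all promoters held TATAAA and 6.75% the AP-1 letters. TTGCNNAA, a form of the C/EBP site, and the NF-kB consensus had no match in these windows of the 5 genes, against 9.57% and 7.25% of all promoters. These are matches of letters in one window and no measure of binding.

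With the libraries pooled, macrophages held most of the RNA of 4 of the 5 genes, and Il1r2 was the exception. Over all kept barcodes of the 5 libraries, macrophages held 79.0% of the Il1a UMIs, 81.7% of Il1b, 72.6% of Il1rn and 77.1% of Tnf, but 28.6% of Il1r2. Neutrophils, 127 of 31156 kept barcodes, held 23.4% of the Il1r2 UMIs and 0.781% to 2.96% of the UMIs of each other gene. By library the neutrophils' part of Il1r2 was 5.59%, 20.6%, 26.4%, 51.1% and 17.9%. The macrophages' part of it was 37.5%, 22.2%, 27.6%, 15.8% and 53.1%, so in L-fuc day 21 they held most of it. The remaining Ptprc barcodes held 33.3% of Il1r2 and 9.54% to 16.2% of each other gene.

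Il1b was the most abundant of the 5 in macrophages of every library, and Il1r2 the least. Each UMI counts 1 captured molecule whatever its length. Whether the genes are captured alike was not tested, so ranks between genes are ranks of UMIs. Il1b, the IL-1β gene, stood at 2017 (1979 to 2056), 972 (956 to 989), 1041 (1026 to 1055), 2144 (2111 to 2177) and 1733 (1700 to 1766) CPM in macrophages. The day 0 and both day 21 libraries were high and both day 7 libraries low, and no interval of the first set met one of the second. Tnf, the next most abundant, stood at 534 (515 to 554), 378 (368 to 389), 337 (328 to 345), 665 (646 to 683) and 499 (482 to 517). It had the same low pair at day 7, and its highest level was in control day 21.

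Il1rn, the antagonist gene, stood at 460 (442 to 479), 186 (179 to 193), 221 (215 to 228), 254 (243 to 266) and 245 (233 to 258) CPM in macrophages. Pretreatment day 0 was the high library here, and the intervals of both day 21 libraries overlapped. Il1a, the IL-1α gene, stood at 248 (235 to 262), 100.1 (94.9 to 106), 88.9 (84.7 to 93.4), 125 (117 to 133) and 96.1 (88.6 to 104). Day 0 was again the high library, and L-fuc day 21 overlapped both day 7 libraries in its interval. Il1r2, the decoy receptor gene, stood at 50.5 (44.7 to 57.0), 11.3 (9.61 to 13.3), 25.1 (22.9 to 27.5), 7.83 (5.97 to 10.1) and 15.4 (12.4 to 18.8). Of the 268 Il1r2 UMIs of day 0 macrophages, 135 came from a single barcode.

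**Figure D1:**
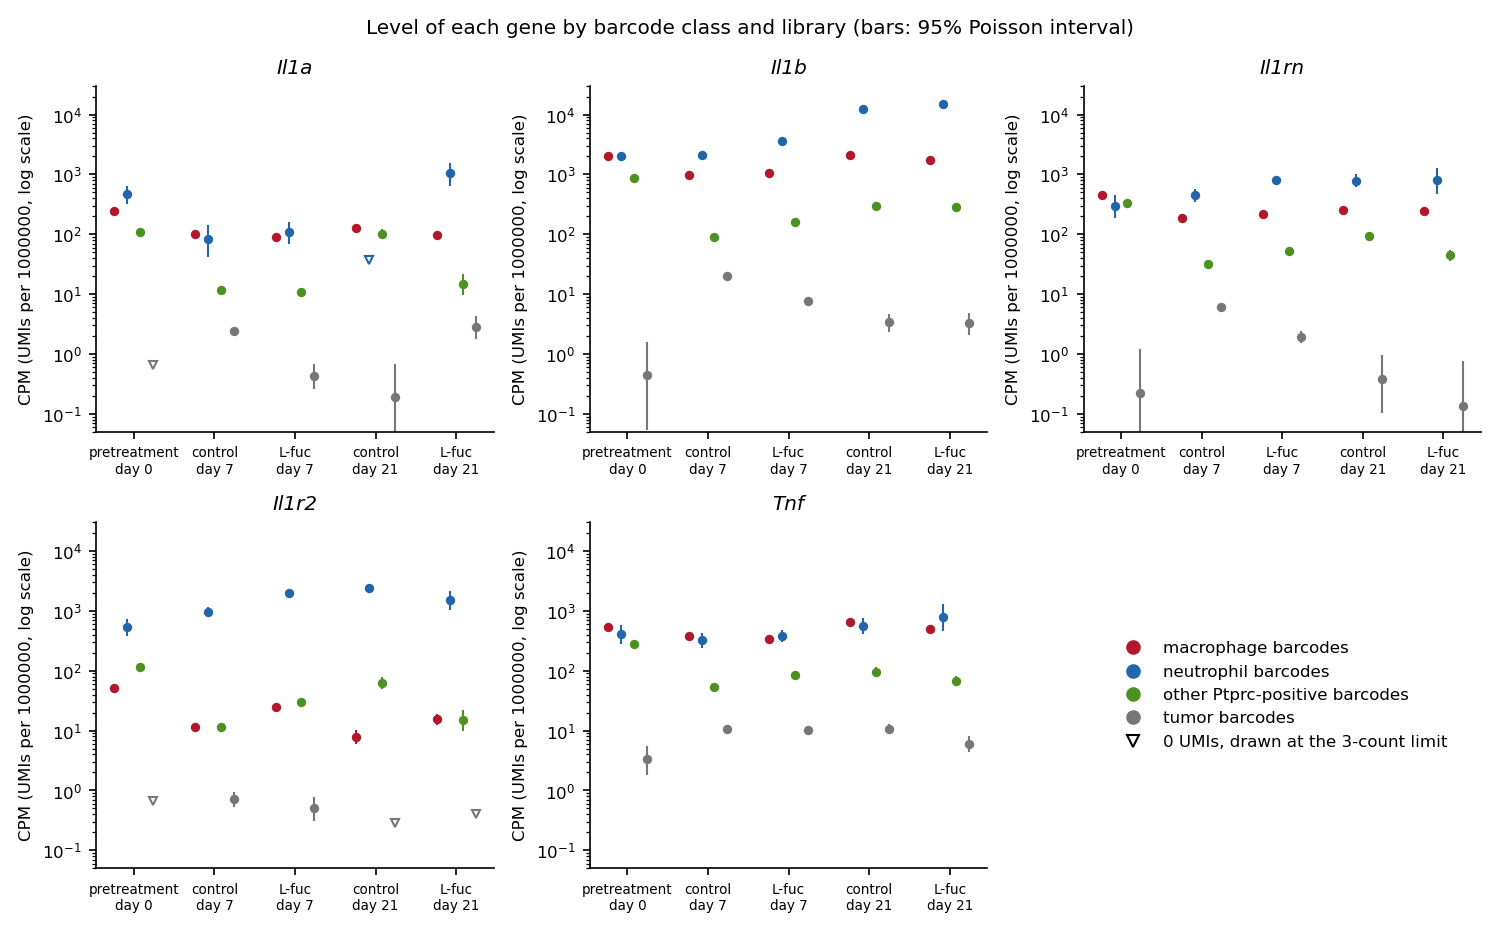
CPM (log axis) of the 5 genes in macrophages, neutrophils, other Ptprc barcodes and tumor barcodes of the 5 libraries, with exact Poisson 95% intervals and open triangles at 3 UMIs where none were counted. Of the 5 genes, Il1r2 separates neutrophils from macrophages most, at 7.83 to 50.5 in macrophages against 535 to 2431 in neutrophils. Tnf in both classes overlaps in range (337 to 665 against 328 to 803). Il1r2 in other Ptprc barcodes (11.5 to 116) overlaps its range in macrophages.

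In neutrophils Il1b and Il1r2 were the leading members. Il1b stood at 2031, 2071, 3581, 12267 and 14778 CPM, from 152, 303, 792, 979 and 313 UMIs, so both day 21 libraries were far above both day 7 libraries. Il1r2 stood at 535, 971, 1998, 2431 and 1511, from 40, 142, 442, 194 and 32 UMIs. At least 1 Il1b UMI was found in 83.3%, 87.2%, 91.4%, 100% and 100% of the neutrophils, and at least 1 Il1r2 UMI in 66.7%, 82.1%, 89.7%, 100% and 71.4%. Il1rn stood at 294, 451, 818, 789 and 803 CPM and Tnf at 414, 328, 384, 564 and 803. Il1a was thinly seen, at 468, 82.0, 108 and 0 in the first 4 libraries (35, 12, 24 and 0 UMIs). A count of 0 in the 17 neutrophils of control day 21 allows up to 37.6 CPM. In L-fuc day 21 it stood at 1039, but all of its 22 UMIs came from 1 of the 7 barcodes.

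Within a library, neutrophils and macrophages share the animals and the sequencing run, so their ratio does not rest on a comparison of libraries. It compares parts of the RNA of each class and not UMIs per barcode. A neutrophil held fewer UMIs than a macrophage on average at days 7 and 21, but not at day 0. At control day 7, 39 neutrophils held 146311 UMIs and 1751 macrophages 13492339. At L-fuc day 21, 7 neutrophils held 21180 and 410 macrophages 6189528. Of the 25 ratios of a gene in a library, 14 were at least 2-fold higher in neutrophils and 1 was at least 2-fold lower, and without day 0 it was 13 and 1 of 20. Among all genes, 16.6%, 14.7%, 13.1%, 20.6% and 15.5% were that much higher in neutrophils and 11.6%, 9.93%, 17.4%, 10.9% and 4.91% that much lower. With genes restricted to at least 3 UMIs expected in the smaller class, an alternative chosen after seeing the data, 7.02%, 6.94%, 9.67%, 13.8% and 13.3% were higher and 29.5%, 15.6%, 26.8%, 28.1% and 45.9% lower. Il1r2 was 10.6-fold (7.39 to 14.8), 85.6-fold (67.6 to 108), 79.6-fold (69.7 to 90.9), 311-fold (231 to 422) and 98.4-fold (63.8 to 148) higher in neutrophils. In every library its ratio lay above the 99th percentile of all genes compared there, the lowest being 99.59. It stayed past 2-fold in each of the 13 alternative ways of processing in every library.

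Il1b was 1.01-fold, 2.13-fold, 3.44-fold, 5.72-fold and 8.53-fold as high in neutrophils as in macrophages, past 2-fold in 4 of 5 libraries. Il1rn stood at ratios of 0.639, 2.43, 3.70, 3.11 and 3.28. Per barcode this can differ. At control day 7, 39 neutrophils held 303 Il1b UMIs and 1751 macrophages 13118, about as many per barcode. At L-fuc day 21, 7 neutrophils held 17 Il1rn UMIs and 410 macrophages 1516, fewer per neutrophil. The 4 libraries past 2-fold for both genes were those of days 7 and 21. Tnf was the one member that never passed 2-fold, at 0.776, 0.867, 1.14, 0.849 and 1.61, and the interval of each ratio included 1. Il1a stood at 1.88, 0.819 and 1.22 in the first 3 libraries and at no more than 0.300 in control day 21, with 3 UMIs taken as the floor. In L-fuc day 21 its ratio of 10.8 rested on the single barcode named above.

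**Figure D2:**
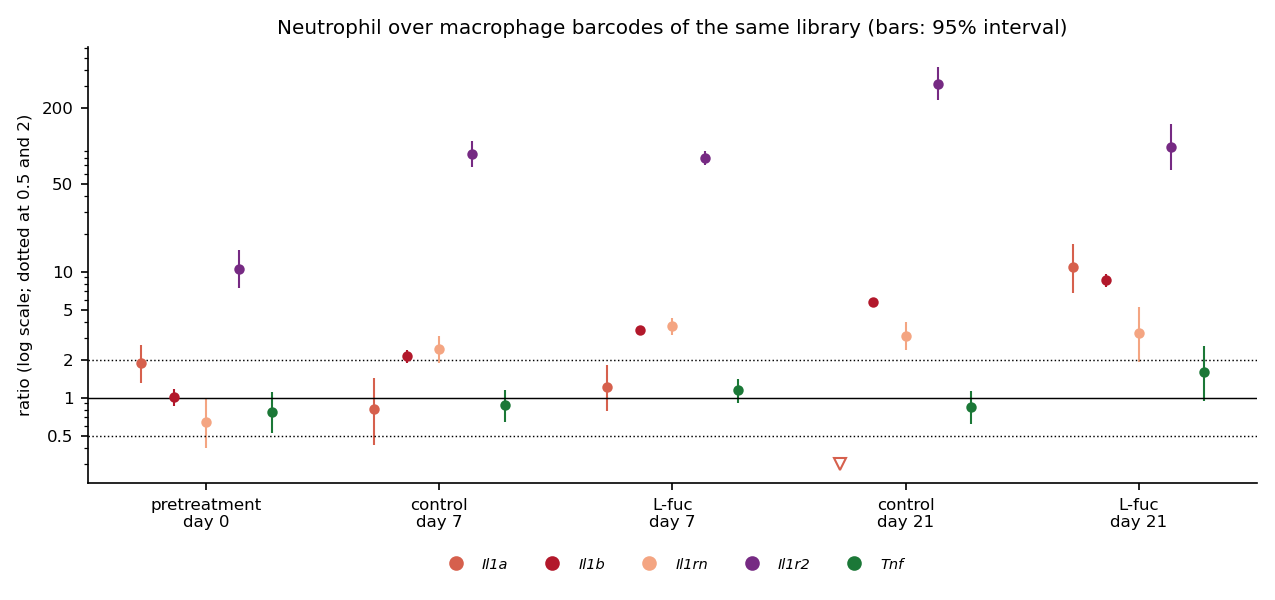
Ratio of CPM in neutrophils to those in macrophages of the same library (log axis) for each gene, with exact 95% intervals, lines at 2-fold and an open triangle where 0 UMIs were set to 3. Il1r2 lies between 10.6 and 311 in all libraries, Il1b and Il1rn pass 2-fold in 4 of 5, and Tnf lies between 0.776 and 1.61.

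The members were also set against Il1b within each class, a ratio of UMIs in the same barcodes that does not depend on the total. In macrophages there were 0.0251, 0.0117, 0.0241, 0.00365 and 0.00886 Il1r2 UMIs for each Il1b UMI, and in neutrophils 0.263, 0.469, 0.558, 0.198 and 0.102. In every library the neutrophil ratio lay above the macrophage ratio with no overlap of intervals. Neutrophils thus held more Il1r2 UMIs for each Il1b UMI than macrophages did, though Il1r2 stayed below Il1b in both classes. Tnf per Il1b went the other way, at 0.265, 0.389, 0.324, 0.310 and 0.288 in macrophages and 0.204, 0.158, 0.107, 0.0460 and 0.0543 in neutrophils, though at day 0 the intervals overlapped (0.254 to 0.276 against 0.134 to 0.302). Il1rn per Il1b was 0.228, 0.191, 0.213, 0.119 and 0.141 in macrophages, lowest in both libraries of day 21. Il1a per Il1b was 0.123, 0.103, 0.0855, 0.0584 and 0.0555 in macrophages, and at both times the L-fuc value lay below that of control. The Il1a interval of L-fuc day 21 (0.0510 to 0.0602) overlapped that of control day 21 (0.0547 to 0.0623), and that of L-fuc day 7 (0.0812 to 0.0899) did not overlap that of control day 7 (0.0973 to 0.109).

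Each member stood at a low level in tumor barcodes. Il1b stood there at 0.440, 19.9, 7.66, 3.38 and 3.27 CPM, with a UMI in 0.760%, 12.7%, 6.75%, 6.13% and 4.64% of tumor barcodes. Il1rn was at most 6.15, Il1r2 at most 0.720 and Il1a at most 2.86 CPM. Tnf stood at 3.30, 10.6, 10.2, 10.6 and 6.00 in the order of libraries. In control day 7, 8818 of 17897 kept barcodes were tumor barcodes. They held 9.09% of the Il1a UMIs of that library, 7.83% of Il1b, 10.95% of Il1rn, 7.40% of Il1r2 and 10.05% of Tnf. In each other library they held at most 4.97% of any member. The part of free RNA in the droplets in these values was not tested.

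The time course of the control arm was compared in macrophages, first from pretreatment day 0 to control day 7. All of Il1a, Il1b, Il1rn and Il1r2 were at least 2-fold lower at day 7, which makes 4 of 5 members lower and 0 higher. Among 12552 genes compared, 3.00% were at least 2-fold lower and 26.1% at least 2-fold higher. Relative to day 0, Il1a stood at 0.403 (0.373 to 0.435), Il1b at 0.482 (0.470 to 0.495), Il1rn at 0.404 (0.382 to 0.427) and Il1r2 at 0.224 (0.183 to 0.275). Tnf stood at 0.708 (0.677 to 0.742), short of 2-fold. The median log2 ratio of all genes compared was 0.39, so all 5 members lay below the median gene.

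The same libraries differed in the tumor cell RNA that macrophage barcodes held. A Sox10 UMI was in 10 of 456 macrophages at day 0 and 544 of 1751 at control day 7, and the summed tumor markers in macrophages were 6.98 and 153 CPM. At control day 7 the macrophages with Sox10 had 0.371 of the Il1a level of those without, 0.468 for Il1b, 0.448 for Il1rn, 0.515 for Il1r2 and 0.487 for Tnf. Without macrophages that had a Sox10 or Cd3 UMI, the ratio of day 7 to day 0 was 0.639 for Il1a, 0.679 for Il1b, 0.560 for Il1rn, 0.252 for Il1r2 and 0.837 for Tnf. All 5 were still below 1, but of the 4 members past 2-fold only Il1r2 stayed past it. With thinning to 1000 UMIs, with equal weights for all barcodes or with gates of 20 UMIs, 2 of the 4 stayed. The part of this RNA in the difference was not tested.

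The shares of macrophages with a UMI moved less than the levels. Il1b was found in 49.3% of macrophages at day 0 and 57.2% at control day 7, or in 32.2% and 31.7% when each barcode was thinned to 1000 UMIs, which left out 5 and 2 barcodes. A positive macrophage held a mean of 47.5 Il1b UMIs at day 0 and 13.1 at day 7, raw UMIs in macrophages with a median depth of 7888 and 6223. For Il1a the share was 20.6% and 17.1%, thinned 7.75% and 5.63%, and a positive barcode held a mean of 14.01 and 4.52 UMIs. The Il1r2 value leaned on the barcode with 135 UMIs, and with the highest barcode of each library left out, an alternative chosen after seeing the data, its ratio was 0.418. Il1rn had a UMI in 49.1% and 36.6% of macrophages, thinned 18.9% and 12.3%.

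From control day 7 to control day 21 in macrophages, Il1b was the single member past 2-fold, and it was higher. Among 12736 genes, 4.36% were at least 2-fold higher and 18.5% at least 2-fold lower, with a median log2 ratio of -0.23. Il1b stood at 2.21 (2.16 to 2.26) relative to day 7, Tnf at 1.76 (1.69 to 1.83), Il1rn at 1.37 (1.29 to 1.45) and Il1a at 1.25 (1.15 to 1.36). Il1r2 stood at 0.690 (0.503 to 0.936), from 153 and 60 UMIs. The Il1b ratio fell short of 2-fold in 3 of 13 alternatives. These were thinning to 1000 UMIs, equal weights for all barcodes, and leaving out macrophages with Sox10 or Cd3, which gave 1.499. Leaving these macrophages out also gave 1.285 for Tnf, 0.982 for Il1rn, 0.716 for Il1a and 0.630 for Il1r2. Il1rn and Il1a were thus no longer higher at day 21 without them. A Sox10 UMI was in 544 of 1751 macrophages at day 7 and 24 of 786 at day 21, and the summed tumor markers in macrophages were 153 and 20.9 CPM. Their part in the Il1b difference was not tested. At day 21 a positive macrophage held a mean of 36.0 Il1b UMIs, uncorrected for depth, and the thinned share of macrophages with Il1b was 42.0%. Tnf, with a UMI in 38.8% and 39.1% of macrophages, had a mean of 7.52 and 16.6 UMIs in a positive barcode.

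Of 12 genes known to respond to tissue dissociation, 4 were at least 2-fold higher in day 21 control macrophages than at day 7. The list had 0 genes lower and a median log2 ratio of 0.80. Among all genes, 4.36% were that much higher and 18.5% that much lower. Dusp1, a stress-induced phosphatase, stood at 3.06 and Junb, an AP-1 subunit, at 2.27. From day 0 to day 7 the same genes stood at 0.424 and 0.552, and the list had 1 gene higher, 1 lower and a median of -0.18. Over all genes, 26.1% were higher and 3.00% lower there. Dnajb1, of the same list, went the other way, among its 2 highest from day 0 to day 7 and its 2 lowest from day 7 to day 21. The part of dissociation in the Il1b levels was not tested.

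**Figure D3:**
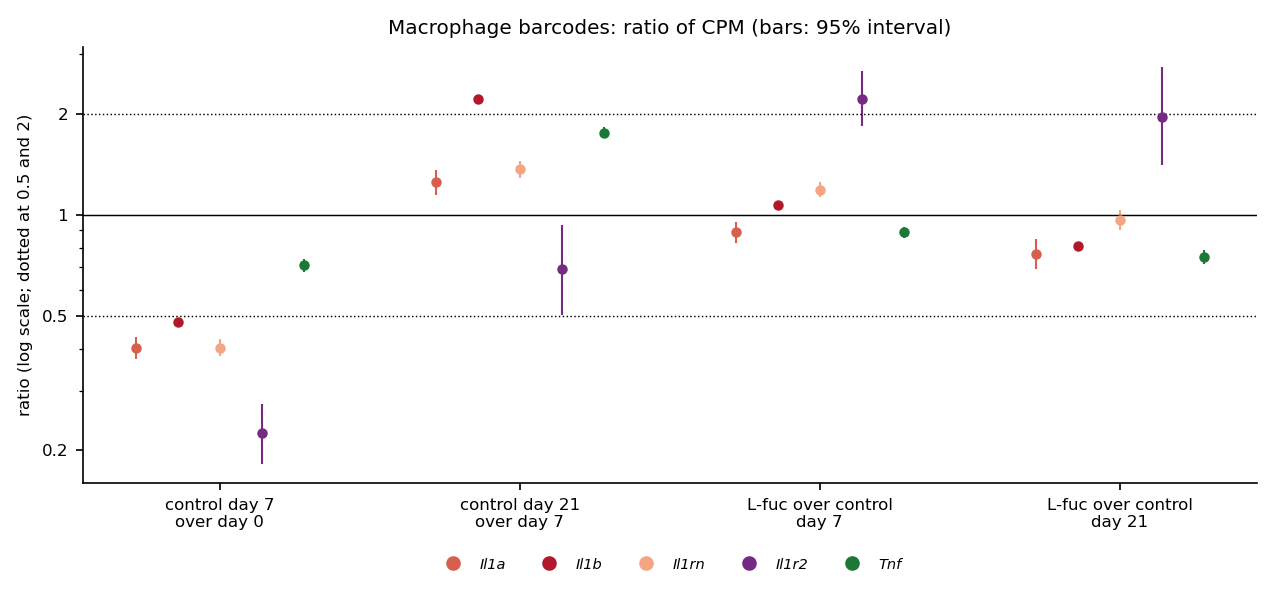
Ratios of CPM in macrophages (log axis) for the 4 comparisons between libraries, with exact 95% intervals and lines at 2-fold. Il1a, Il1b, Il1rn and Il1r2 lie below 0.5 from day 0 to control day 7, Il1b lies at 2.21 from control day 7 to control day 21, and of the L-fuc comparisons only Il1r2 at day 7 passes 2-fold at 2.21.

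L-fuc and control were compared in macrophages to ask whether the sugar goes with a change in these cytokine RNAs. At day 7, Il1r2 was the single member past 2-fold, higher in L-fuc. Among 13480 genes, 3.69% were at least 2-fold higher and 4.97% at least 2-fold lower, with a median log2 ratio of -0.14. Il1r2 stood at 2.21 (1.84 to 2.68), from 462 UMIs in L-fuc and 153 in control. Il1b stood at 1.07 (1.05 to 1.09) and Il1rn at 1.19 (1.13 to 1.25), Il1a at 0.888 (0.826 to 0.955) and Tnf at 0.890 (0.857 to 0.923). Thinned to 1000 UMIs, 24.6% of L-fuc and 31.7% of control macrophages had Il1b, and 12.4% and 15.9% had Tnf, so for Il1b the share and the level differed in opposite directions. The mean number of Il1b UMIs in a positive macrophage, uncorrected for depth, was 20.5 in L-fuc and 13.1 in control.

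At day 21 none of the members passed 2-fold between L-fuc and control macrophages. Among 11665 genes, 4.46% were at least 2-fold higher and 1.19% at least 2-fold lower, with a median log2 ratio of 0.01. Il1r2 came closest, at 1.96 (1.41 to 2.76) from 95 and 60 UMIs, and was higher in L-fuc at both times. Tnf stood at 0.751 (0.718 to 0.786), Il1a at 0.768 (0.692 to 0.851) and Il1b at 0.808 (0.789 to 0.828). The interval for Il1rn, at 0.965 (0.901 to 1.03), included 1. Thinned shares were 46.9% in L-fuc and 42.0% in control for Il1b and 18.4% and 20.2% for Tnf. With 1 library per condition, a difference of this size between libraries cannot be told apart from one between animals.

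At day 7 the macrophages with most Il1r2 were deeper and more often held a UMI of a T cell or neutrophil marker. Macrophages with 3 or more Il1r2 UMIs numbered 17 in control and 48 in L-fuc and held 57.5% and 79.9% of the macrophages' Il1r2 UMIs. In L-fuc day 7 a Cd3 UMI, a T cell mark, was in 66.7% of them against 28.0% of the macrophages without Il1r2, and a UMI of S100a8 or S100a9 in 31.3% against 2.18%. In control day 7 the same shares were 52.9% against 32.0% and 11.8% against 2.21%. The median depth of the L-fuc barcodes with 3 or more was 17608 UMIs, against 5354 without Il1r2. With macrophages left out that had a UMI of S100a8, S100a9 or Cd3, an alternative chosen after seeing the data, the ratio of L-fuc to control was 1.06 at day 7 and 2.45 at day 21. Leaving out macrophages with Sox10 or Cd3 gave 1.08 and 2.26. The day 7 call was thus lost without such barcodes, while at day 21 the ratio passed 2-fold. Over all 13 alternatives the day 21 ratio ran from 1.48 to 2.45 and passed 2-fold in 4. It rested on few barcodes, as 7 macrophages held 75 of the 95 Il1r2 UMIs in L-fuc and 6 held 32 of the 60 in control. The summed T cell markers in macrophages were 317, 237, 443, 49.3 and 32.5 CPM.

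In neutrophils at day 7, Il1r2 was again the single member past 2-fold, higher in L-fuc. Among 2420 genes, 13.1% were at least 2-fold higher and 14.5% at least 2-fold lower, so a value of this size was common there. Il1r2 stood at 2.06 (1.70 to 2.51), Il1rn at 1.81 (1.36 to 2.44) and Il1b at 1.73 (1.51 to 1.98). Tnf at 1.17 (0.813 to 1.71) and Il1a at 1.32 (0.636 to 2.90) had intervals that included 1. At day 21, with 7 and 17 neutrophils and 784 genes compared, 11.9% of genes were at least 2-fold higher and 33.7% at least 2-fold lower. Il1a was the single member past 2-fold, at least 27.6-fold higher in L-fuc with 3 UMIs as the floor, from the single barcode named above. Il1r2 stood at 0.622 (0.414 to 0.907), below control, and Il1b at 1.21 (1.06 to 1.37). Over the 13 alternatives this Il1b ratio ran from 0.773 to 1.359, so its direction depended on the processing. Il1rn stood at 1.02 (0.558 to 1.76) and Tnf at 1.42 (0.764 to 2.54).

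The members were spread unevenly among macrophages. The 5% of macrophages with most Il1a UMIs held 78.5%, 76.1%, 89.1%, 84.3% and 75.8% of all Il1a UMIs of the class. For Tnf it was 59.2%, 64.3%, 70.2%, 54.0% and 57.4%, for Il1rn 59.7%, 49.9%, 62.5%, 58.8% and 57.5%, and for Il1b 45.5%, 47.2%, 62.5%, 40.5% and 40.6%. For Apoe, a lipid carrier gene of macrophages that no gate used, it was 34.6%, 33.3%, 51.9%, 39.8% and 38.5%. Counting alone concentrates a gene with few UMIs, so genes of different levels cannot be ranked by this value. L-fuc day 7 had the highest value of the libraries for each of these 4 members and for Apoe alike. Il1r2 had 95.2% to 100% of its UMIs in the top 5%, where in 2 libraries fewer than 5% of macrophages had any.

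**Figure D4:**
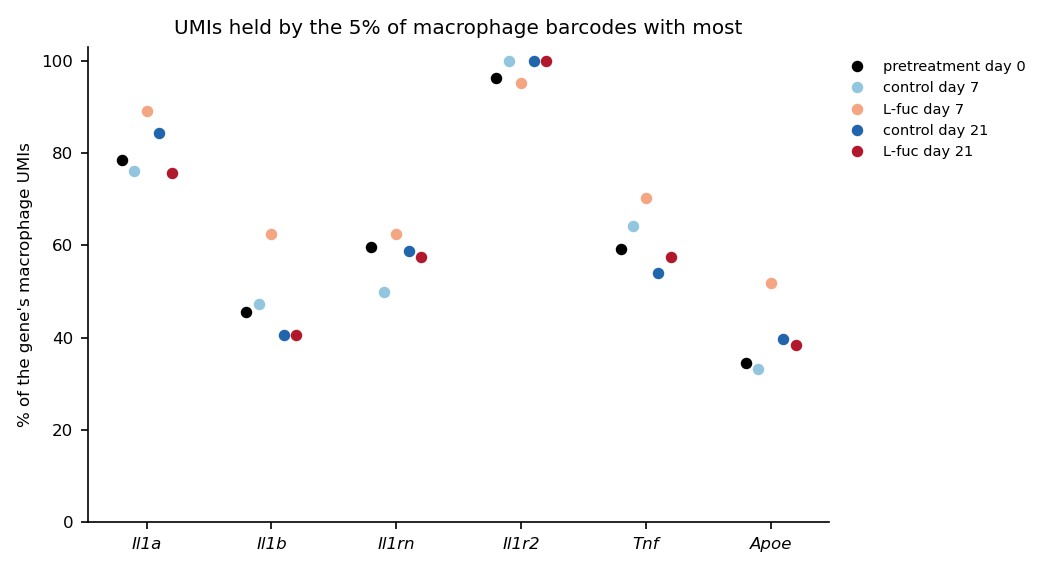
Percent of each gene's macrophage UMIs that lay in the 5% of macrophages with most of them, by library, with Apoe beside them. Il1a lies between 75.8% and 89.1%, Il1b between 40.5% and 62.5%, and Apoe between 33.3% and 51.9%.

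The members were also looked at in pairs within single macrophages. The number of barcodes expected to hold both was computed within 10 depth classes of each library. Il1a and Il1rn were found together 1.32, 1.56, 1.70, 1.29 and 1.18 times as often as this number, and Il1a and Tnf 1.35, 1.495, 1.49, 1.37 and 1.15 times. For Il1b and Tnf it was 1.21, 1.19, 1.21, 1.18 and 1.09, and for Il1b and Il1rn 1.14, 1.16, 1.27, 1.07 and 1.03. Il1a and Il1b stood at 1.21, 1.28, 1.46, 1.13 and 0.991. Pairs with Il1r2, which few macrophages held, ran from 1.09 to 1.43 with Il1b, 1.15 to 1.86 with Il1a, 0.977 to 1.35 with Il1rn and 0.931 to 1.34 with Tnf. Of the 10 pairs of members, 3 thus had 1 library under the expected number. Il1a with Cxcl1, the gene of a neutrophil-attracting chemokine, gave the highest values among these pairs, at 1.82, 2.11, 2.73, 2.06 and 1.59.

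Split by a UMI of Cxcl1, macrophages differed most in Il1a. Those with Cxcl1 (85, 320, 168, 97 and 53 barcodes) had 6.18, 6.99, 7.56, 9.79 and 4.64 times the Il1a level of those without. For Tnf the ratio was 3.24, 2.96, 2.88, 3.07 and 2.24, for Il1rn 3.28, 2.92, 2.53, 2.55 and 2.43, and for Il1b 2.13, 3.28, 3.67, 1.83 and 1.47. Split by Arg1, the arginase gene that marks one macrophage state, Il1a and Il1b parted. Macrophages with Arg1 had 4.49, 2.63, 2.04, 4.72 and 3.18 times the Il1a level of those without, but 0.824, 1.20, 1.19, 0.863 and 0.691 times the Il1b level. Il1rn went with Il1a here, at 1.81, 1.93, 1.76, 2.61 and 2.96. Split by Cx3cr1, the fractalkine receptor gene, Il1b stood at 1.40, 1.14, 1.66, 1.80 and 1.90 and Tnf at 2.26, 1.43, 1.16, 1.34 and 1.60, whereas Il1a stood at 0.917, 0.786, 0.775, 1.43 and 1.52. Split by Ccr7, the chemokine receptor gene of mature dendritic cells (27, 62, 105, 6 and 10 barcodes with it), Il1r2 stood at 1.66, 5.54, 3.68, 2.59 and 0.784. The day 21 values rested on 2 and 3 Il1r2 UMIs in barcodes with Ccr7. At day 7, Fscn1, another mature dendritic cell marker, was in 29.4% (control) and 10.4% (L-fuc) of macrophages with 3 or more Il1r2 UMIs. It was in 24.9% and 11.7% of those without Il1r2. For Ccl22, a further such marker, the shares were 5.88% and 12.5% against 1.01% and 0.829%. The genes of these splits were chosen with values in view. Barcodes in which a further gene was detected were deeper, and CPM do not remove that fully.

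**Figure D5:**
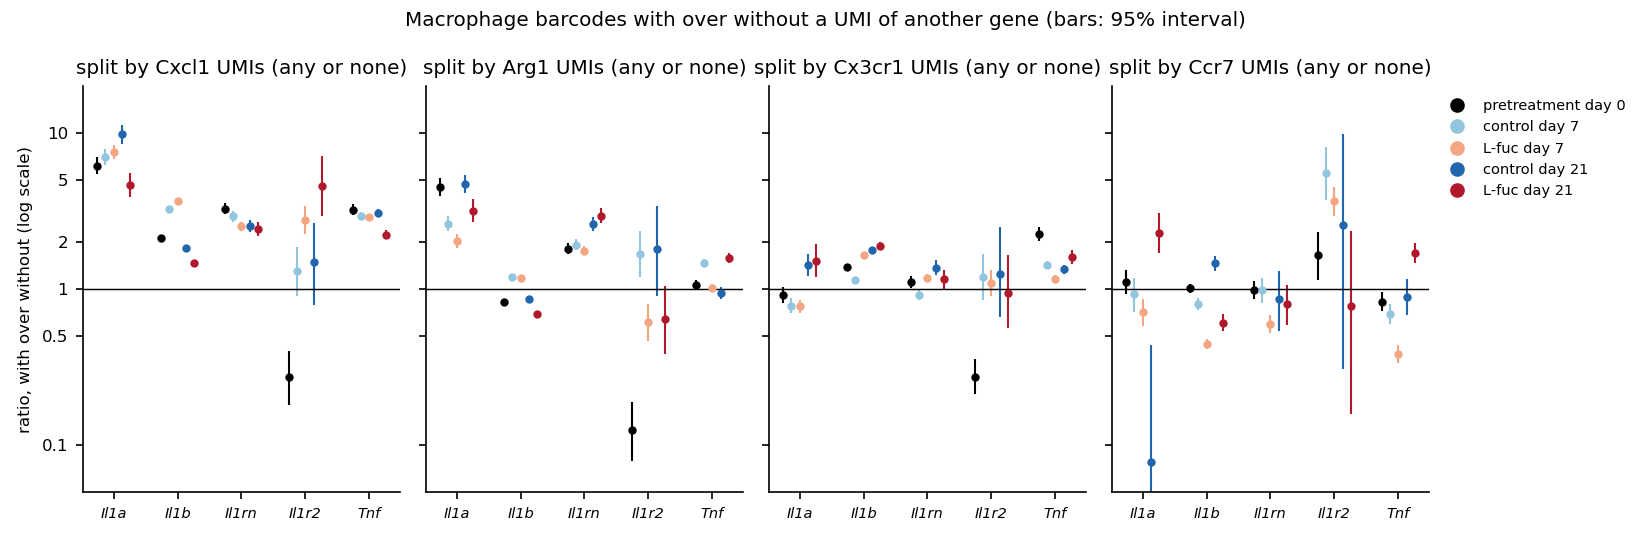
Ratio of CPM (log axis) in macrophages with a UMI of Cxcl1, Arg1, Cx3cr1 or Ccr7 to those without, for the members in each library, with exact 95% intervals. Il1a lies at 4.64 to 9.79 for Cxcl1 and 2.04 to 4.72 for Arg1, while Il1b lies at 0.691 to 1.20 for Arg1.

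Among the remaining Ptprc barcodes, all members were highest in pretreatment day 0. Il1b stood at 880, 91.7, 158, 300.3 and 286 CPM, Tnf at 279, 54.5, 85.2, 97.0 and 68.3, and Il1r2 at 116, 11.5, 30.2, 62.2 and 14.8. The make-up of this class differed between libraries, with summed B cell markers at 990 CPM at day 0 and 11.2 at control day 7. At day 0, 41 barcodes with at least 2 UMIs of Siglech, Bst2 and Cox6a2, genes that tumor and macrophage barcodes also held, had 1355 of the class's 2992 Il1b UMIs and 274 of its 396 Il1r2 UMIs. The part of this make-up in the levels was not tested. Barcodes with at least 2 UMIs of Cd3e, Cd3d and Cd3g (327, 759, 1096, 53 and 27) had Il1r2 at 19.8, 38.4, 37.8, 92.8 and 18.8 CPM. In L-fuc day 7, 73 barcodes of mast cell markers had it at 111 CPM, from 64 UMIs, so other marker groups held it as well. Barcodes of natural killer markers had it at 0, 2.99, 11.5, 0 and 19.6, from at most 34 UMIs. A UMI of Il1r2 was in 6.85% of the T cell marker barcodes of control day 7 and 7.12% of those of L-fuc day 7, against 0.516% and 1.42% of those with natural killer markers, at median depths of 3434 and 4408 against 2446 and 3435 UMIs. Thinned to 1000 UMIs these shares were 2.17% and 2.18% against 0.189% and 0.635%.

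T cell marker barcodes with a UMI of Foxp3, the gene of the regulatory T cell factor, were looked at after these values were seen. Relative to those without, they had 0.455, 2.24 (1.504 to 3.28), 1.58 (1.15 to 2.13), 0.862 and 3.74 times the Il1r2 level. Both day 7 libraries gave intervals above 1, at 74.3 against 33.1 CPM in control and 55.5 against 35.1 in L-fuc. The intervals of the other 3 libraries included 1.

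The partners of these cytokines were counted from fixed lists in macrophages. Of the IL-1 processing genes (inflammasome sensors, caspases and gasdermin), 0 of 12 passed 2-fold in any of the 4 comparisons. The same held for the 9 adaptors of IL-1 and Toll receptors. The IL-1 family ligands and receptors had 3 of 11 higher and 0 lower in L-fuc at day 7, 1 of 7 higher at day 21, 5 of 9 higher from day 0 to control day 7 and 6 of 9 lower from control day 7 to day 21. Over all genes, the shares that far in the same directions were 3.69%, 4.46%, 26.1% and 18.5%. The counts leave out Il1a, Il1b, Il1rn and Il1r2, of which all were lower from day 0 to control day 7. The list's median log2 ratios were 0.72, 0.31, 1.35 and -1.62, against -0.14, 0.01, 0.39 and -0.23 over all genes. Il1rap, the signalling partner, was 4.81 times as high at control day 7 as at day 0 and then fell to 0.180 of that by day 21. Il18r1 and Il18rap, both parts of the IL-18 receptor of T and natural killer cells, stood at 2.56 and 3.68 from day 0 to day 7. At day 7, Il18rap stood at 2.47 and Il1f9, an IL-36 ligand gene, at 9.53 (2.39 to 82.8) in L-fuc, the latter from 26 and 2 UMIs. Il1rap stood at 48.9 to 61.1 CPM in tumor barcodes against 3.91 to 21.8 in macrophages. The summed tumor markers in macrophages were 6.98, 153, 91.6, 20.9 and 29.7 in the order of libraries. Summed T cell markers in macrophages were 317 CPM at day 0 and 237 at control day 7, and natural killer markers 9.05 and 119. The part of tumor, T cell and natural killer RNA in these values was not tested.

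In the TNF list, 1 of 12 genes was at least 2-fold higher in L-fuc at day 7, 1 at day 21 and 1 from day 0 to control day 7, and 3 were lower from control day 7 to day 21. The same shares of all genes, 3.69%, 4.46%, 26.1% and 18.5%, stand beside these counts. Lta, the lymphotoxin gene, stood at 2.52 in L-fuc at day 7. Summed T cell markers in those macrophages were 443 CPM in L-fuc and 237 in control, and the part of T cell RNA was not tested. Timp3, the inhibitor of TNF shedding, had 1 UMI in day 0 macrophages and 487 in control day 7, and stood at 0.177 from control day 7 to day 21. It stood at 74.2 to 141 CPM in tumor barcodes.

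Of the NF-kB subunits and feedback genes, 1 of 14 was lower and 0 higher from day 0 to control day 7, where 3.00% of all genes were lower. From control day 7 to day 21, 2 of 14 were higher and 0 lower, where 4.36% of all genes were higher. Zfp36, whose product degrades the RNAs of Tnf and other cytokines, stood at 0.482 and then 3.23. Nfkbiz, a nuclear cofactor of NF-kB, stood at 2.19 in the second of these comparisons. In L-fuc, 0 of 14 passed 2-fold at day 7 and 0 of 14 at day 21, where Zfp36 stood at 0.733 and Nfkb1, a subunit gene, at 0.720. Of the response genes, 2 of 19 were higher and 4 lower in L-fuc at day 7, against 3.69% and 4.97% of all genes. Csf2, the GM-CSF gene, stood at 4.29 and Il12b at 2.42, and the chemokine genes Cxcl3 and Cxcl1 at 0.265 and 0.347. At day 21, 1 of 17 was higher and 1 lower, against 4.46% and 1.19% of all genes, with Saa3 at 3.51 and Csf2 at 0.236. Summed natural killer markers in day 7 macrophages were 119 CPM in control and 577 in L-fuc, and mast cell markers 5.71 and 50.8. The part of such RNA in the day 7 values was not tested.

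The receptor genes were looked at in the same classes. Il1r1, the signalling receptor gene, stood at 0.189 to 2.50 CPM in macrophages, 0 in neutrophils and 0.220 to 2.18 in tumor barcodes. The neutrophils held too few UMIs for a count of 0 to place them below the other classes. Tnfrsf1a, the broadly expressed TNF receptor gene, stood at 59.7 to 99.0 in macrophages and 44.3 to 76.2 in tumor barcodes. Tnfrsf1b, the second TNF receptor gene, stood at 60.6 to 79.7 in macrophages and 0 to 1.92 in tumor barcodes. Nlrp3, the inflammasome sensor gene, stood at 82.4 to 135 in macrophages and 150 to 714 in neutrophils. These 4 genes were named for their roles after their values were seen.

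The genes most like each member were sought over 17 class and library units of at least 20 barcodes, which share libraries and depth, among 13444 genes. Il1b was closest to Cd14 (Pearson r of 0.993), Ccrl2 (0.990), Emilin2 (0.987) and Il1rn (0.986). Il1rn was closest to Ptgs2 (0.991), the inducible prostaglandin synthase gene, Cd14 (0.989) and Il1b (0.986). Tnf was closest to Grb2 (0.992) and Basp1 (0.989), and Il1a to Spi1 (0.952), Glrx (0.951), with Tnf among the nearest 5 at 0.947. Il1r2 was closest to Slfn1 (0.982) and Mcemp1 (0.969), and its r with the other members was 0.574 to 0.756. These values mostly follow how the classes differ.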

How the data were processed

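Gene expression was measured in 5 SW1 tumor libraries, 1 per condition. The authors aligned reads to mm10 with Cell Ranger (7.1.0 per the file headers, 3.0 per the labels) and deposited the raw UMI count of each gene and barcode, with no normalization. The T cell receptor tables were not used here. The members and gene lists were chosen with earlier results of these data known. Barcodes with at least 500 genes and at most 10% mitochondrial UMIs were kept, and those at both myeloid gates (40) stood apart. No doublet caller was run, and barcodes with markers of a further class were left out in alternatives. UMIs summed over a class and scaled to 1000000 (CPM) have exact Poisson intervals, shares Clopper-Pearson intervals and ratios exact conditional intervals, all at 95%. With 1 library per condition there was no test. A difference past 2-fold was counted, over genes with at least 20 UMIs in both groups together, and a count of 0 was set to 3 UMIs for bounds. Of each list, the genes with the 2 highest and 2 lowest values could be named, as could genes of like pattern, for which 10 was added to CPM before log2. Others were named after their values were seen. Gene positions are from GENCODE vM21, and promoters from RefSeq (GRCm38.p6). The counting of changed genes was tested on simulated data. The steps ran in Python 3.11.15 with pandas 2.3.3, numpy 2.4.6, matplotlib 3.10.9 and scipy 1.17.1.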

Additional observations from a re-analysis of the deposited data

Results flagged for a closer look

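Il1b differed in opposite directions between L-fuc and control macrophages at both times. It stood at 1.07 at day 7 and at 0.808 at day 21, each with an interval that did not include 1. Over the 13 alternatives the day 7 ratio ran from 0.896 to 1.18 and the day 21 ratio from 0.789 to 0.907, so the direction at day 7 depended on the processing. Il1r2 did so in neutrophils, at 2.06 at day 7 and 0.622 at day 21, the latter from 7 and 17 barcodes. The difference between days was not tested for either gene, since each value compares 1 library with 1 library.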

How the results depend on the processing

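The 13 alternatives of processing moved many levels but turned no member past 2-fold to past 2-fold the other way. Of 390 log2 ratios between libraries, 270 stayed within the interval of the value given, and of 182 counts of members past 2-fold, 148 stayed within 1.5 times. Neutrophil Il1r2 was 7.89-fold to 512-fold above macrophages in all 13. The Il1b and Tnf ratios of L-fuc to control macrophages at day 7, both short of 2-fold, crossed 1 (0.896 to 1.18 and 0.738 to 1.15). So did the macrophage ratios of control day 21 to control day 7 for Il1a (0.716 to 1.537) and Il1rn (0.982 to 1.638). The ratio of L-fuc to control at day 21 crossed 1 for Il1rn in macrophages (0.926 to 1.095). In neutrophils it crossed 1 at day 21 for Il1b (0.773 to 1.359), Il1rn (0.402 to 1.42) and Tnf (0.599 to 1.976), and at day 7 for Il1a (0.968 to 2.482).

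Counts of members past 2-fold changed as follows. In L-fuc day 7 macrophages the 1 member higher, Il1r2, became 0 without the deepest 5% of barcodes, without barcodes with Sox10 or Cd3, without macrophages with S100a8, S100a9 or Cd3, with barcodes weighted equally and with thinning. Under the last 4 of these, 1 member in place of 0 was higher at day 21. From day 0 to control day 7, the 4 lower members became 2 with gates of 20 UMIs, equal weights or thinning and 1 without Sox10 or Cd3 barcodes. From control day 7 to day 21, the 1 higher member became 0 without Sox10 or Cd3 barcodes, with equal weights or with thinning, and 2 with gates of 5 UMIs or with the median ratio of all genes set to 0. In neutrophils at day 7 the 1 higher member became 0 with gates of 5 UMIs or a total without mitochondrial, ribosomal and hemoglobin genes. It became 2 with gates of 20 UMIs, without Sox10 or Cd3 barcodes or without each gene's highest barcode, and 3 with barcodes at both gates added. In neutrophils at day 21 the 1 higher member, Il1a, became 0 with gates of 20 UMIs or without its highest barcode, and 0 lower members became 2 without Sox10 or Cd3 barcodes and 1 with equal weights or thinning. Of the 25 ratios of neutrophils to macrophages, the 1 lower became 2 without Sox10 or Cd3 barcodes or the deepest 5%, 3 without each gene's highest barcode and 0 with equal weights or thinning. The causes were not tested.

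Leaving out the highest barcode, leaving out macrophages with S100a8, S100a9 or Cd3 and the restriction on expected UMIs were chosen after seeing the data. No paired analysis was possible because each condition has 1 library and no replicate numbers. Neutrophils, 6 to 58 barcodes a library, limit every value given for them, and at day 21 a gene at 0 could have stood at 37.6 CPM in control and 142 in L-fuc.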
